A study of Rattus norvegicus with 18 samples.

Results

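Oxidative phosphorylation genes encode the proteins of the mitochondrial respiratory chain and of ATP synthase. Their levels were followed here in rat hippocampal neurons in which an activating form of the transcription factor MEF2 was switched on. The set held every gene of the array annotation whose symbol begins with Nduf, Uqcr, Atp5 or Cox4 to Cox8, together with Sdha, Sdhb, Sdhc, Sdhd and Cyc1, each taken only from probe sets with 1 symbol. It came to 87 genes on 97 probe sets, of 14217 named genes and 31042 probe sets in all, and where a gene had several probe sets the one of highest mean level stood for it. By symbol, 36 of them belong to complex I, 4 to complex II, 8 to complex III, 17 to complex IV (cytochrome c oxidase), 16 to complex V (ATP synthase) and 6 are complex I assembly factors of the Ndufaf series. The gene of cytochrome c itself, Cycs, was covered only by probe sets that name several genes and is not among them.

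Neurons were dissociated from rat hippocampus and kept for 10 days in culture. On day 3 they received a lentivirus for MEF2-VP16-ER or for the control MEF2deltaDBD-VP16-ER, and 4-hydroxytamoxifen (4OHT) was given on day 10 for 0, 1 or 2.5 h. This made 6 groups of 3 Affymetrix arrays each, MEF2-VP16-ER at 0, 1 and 2.5 h and control at 0, 1 and 2.5 h, labelled as biological replicates 1 to 3 and 18 arrays in all. In such fusions the VP16 part, a viral activation domain, is added to MEF2 and the ER part, from the estrogen receptor, makes its activity depend on 4OHT, whereas the control is named for a deleted DNA-binding domain. All 18 arrays therefore come from neurons that carry a virus, and every array after 0 h from neurons given 4OHT, the controls included. The labels name no sort of the cells, markers of glia were read on every array, and in such material fewer cells of a type and less RNA per cell cannot be told apart.

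In the respiratory chain, complexes I and II take electrons from NADH and succinate, complex III passes them by way of cytochrome c to complex IV, which reduces oxygen, and ATP synthase uses the proton gradient so built to make ATP. Most subunits are encoded in the nucleus, and a few core subunits in mitochondrial DNA. Neurons depend on this pathway for the ATP that synaptic transmission and ion pumping use, and nuclear factors such as NRF1, GABP and YY1, with the coactivator PGC-1alpha, are known to act on its genes.

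No oxidative phosphorylation gene passed the test in any comparison, and most intervals on their changes lay within 0.5 log2 units of 0. An induction below is how far MEF2-VP16-ER neurons had moved since 0 h less how far control neurons had, in log2 units, and a gene is called where limma's adjusted p (Benjamini-Hochberg over all probe sets) is under 0.05. For the induction at 1 h, 0 of 87 genes were called, where 0.00322% of all probe sets were, and 1 of the 87 had an unadjusted p under 0.05. For the induction at 2.5 h, 0 of 87 were called against a background of 0.177%, and 0 had an unadjusted p under 0.05. The change within MEF2-VP16-ER neurons gave 0 of 87 at 1 h, where the background was 0.0354%, and 0 of 87 at 2.5 h, where it was 0.789%, with 2 and 0 genes under an unadjusted p of 0.05. Within control neurons 0 of 87 were called at either time and between the constructs at 0 h also 0, and there the background was 0% in each case. With backgrounds this low, a count of 0 among 87 genes is what the rate over all probe sets would give, so the counts alone say little about the set. A test for any difference among the 6 groups, limma's moderated F test, called 0 of 87 at a background of 0.751%, and the smallest adjusted p was 0.612, of the assembly factor gene Ndufaf5. With replicate number as a block the counts were again 0 of 87, where the backgrounds were 0.029% for the induction at 1 h, 0.937% for that at 2.5 h, 2.33% within MEF2-VP16-ER neurons at 2.5 h and 2.72% for the F test.

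The intervals say more than the counts. At 2.5 h the 95% interval of the induction lay within 0.5 log2 units of 0 for 82 of the 87 genes (94.3%) and within 1 log2 unit for 86, while of all probe sets 77.5% had an interval within 0.5. At 1 h, 80 of 87 intervals lay within 0.5 and 86 within 1. The widest was that of Ndufaf4, a complex I assembly factor, with an interval of -1.02 to 1.09 at 2.5 h. Of the changes within MEF2-VP16-ER neurons, 85 of 87 intervals at 1 h and 86 at 2.5 h lay within 0.5. Smaller shifts are below what 3 arrays a group resolve. The median standard error of an induction was 0.13 log2 units, where all probe sets had 0.12. At 2.5 h 10 of 87 intervals lay within 0.25, a smaller share than the 6869 of 31042 over all probe sets. With replicate number as a block the median standard error at 2.5 h was 0.09, and 42 of 87 intervals lay within 0.25 and 87 within 0.5. Over all probe sets 9657 of 31042 then lay within 0.25, a smaller share than in the set.

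**Figure D1:**
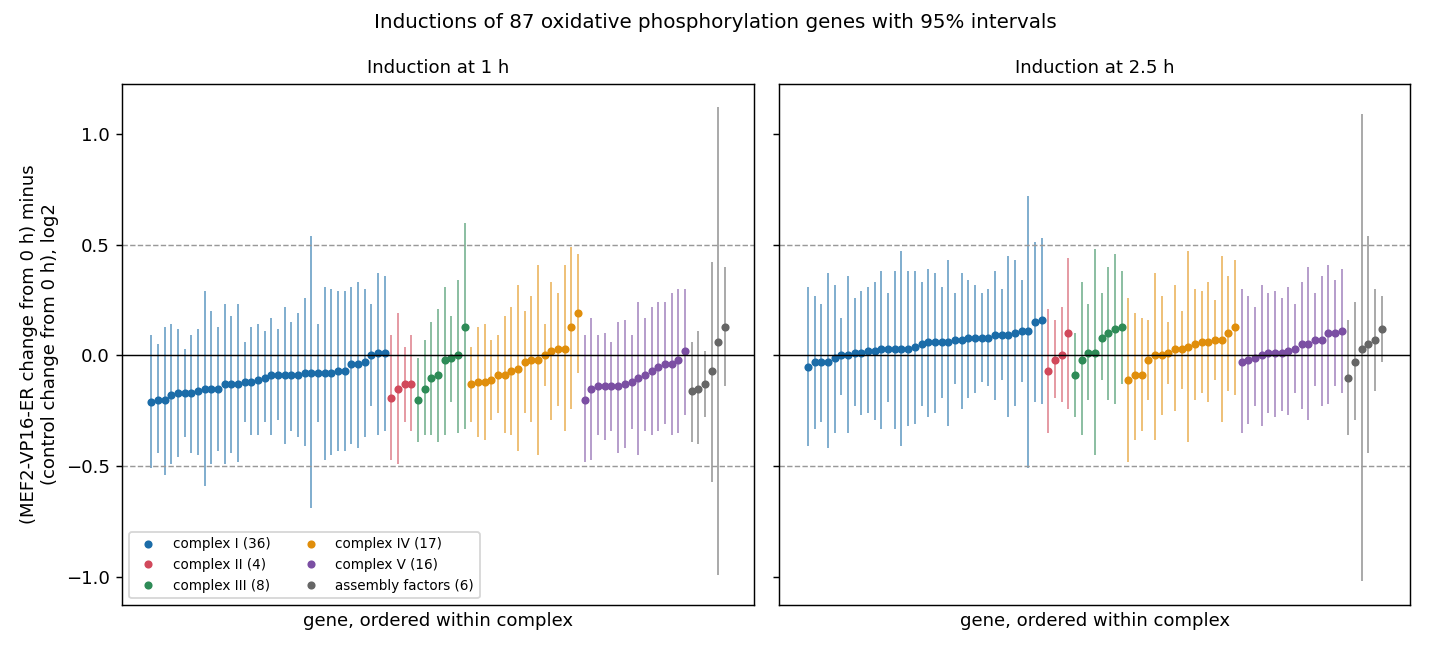
Induction of each of the 87 genes at 1 h (left) and 2.5 h (right), in log2 units on the vertical axis, with genes ordered within their complex along the horizontal axis; points are estimates and bars 95% intervals from limma, and dashed lines mark 0.5 in each direction. At 1 h most points lie below 0 and at 2.5 h most lie above it, while all intervals at 2.5 h and all but 1 at 1 h include 0.

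The signs at the 2 times ran opposite ways. At 1 h the median induction of the 87 genes was -0.09 log2 units (-6.08%), with 13 genes above 0 and 74 below, in a range of -0.21 to 0.19. At 2.5 h it was 0.03 log2 units (2.37%), with 66 genes above 0 and 21 below, in a range of -0.11 to 0.16. Over all probe sets the medians were -0.02 at 1 h and 0.00 at 2.5 h. Within MEF2-VP16-ER neurons alone the medians were -0.08 at 1 h (11 genes higher) and 0.02 at 2.5 h (66 higher), and within control neurons 0.02 (58 higher) and -0.01 (34 higher). At 0 h the MEF2-VP16-ER arrays stood 0.05 above the control arrays, with 75 of 87 genes higher. The comparisons share their 0 h arrays, so their signs are not independent of each other.

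The medians of both inductions turned sign between replicate numbers. Taking each replicate number by itself, 1 array a group, the median induction at 1 h was 0.02 in replicate 1, -0.14 in replicate 2 and -0.17 in replicate 3. At 2.5 h it was 0.09 in replicate 1, 0.10 in replicate 2 and -0.09 in replicate 3. So each time had 1 replicate of opposite sign, and in it 49 of 87 genes were above 0 at 1 h and 19 of 87 at 2.5 h. The median difference of 1 h from 0 h within MEF2-VP16-ER neurons was -0.20 in replicate 2, against -0.03 and 0.00 in replicates 1 and 3. At 2.5 h within MEF2-VP16-ER neurons it was 0.01, 0.02 and 0.04 in replicates 1 to 3, of 1 sign throughout, and between the constructs at 0 h 0.00, 0.04 and 0.10. Within control neurons replicate 3 was above 0 at both times (0.16 and 0.12) and the other replicates below. Without the replicate 2 array of MEF2-VP16-ER at 1 h, the median induction at 1 h was -0.03 and the median change within MEF2-VP16-ER neurons -0.02.

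The spread between arrays was wider than any shift between groups. For each array, the median deviation of the 87 genes from their means over 18 arrays was taken as its level for the set. In MEF2-VP16-ER neurons it was -0.04, 0.04 and 0.08 at 0 h, -0.06, -0.16 and 0.08 at 1 h, and -0.02, 0.05 and 0.13 at 2.5 h, in replicates 1 to 3. In control neurons it was -0.03, 0.01 and 0.00 at 0 h, -0.08, -0.06 and 0.15 at 1 h, and -0.12, -0.07 and 0.11 at 2.5 h. The lowest and the highest array were both from 1 h, MEF2-VP16-ER replicate 2 and control replicate 3, and all 6 groups overlapped. Replicate 3 averaged 0.09 over its 6 arrays, against -0.06 for replicate 1 and -0.03 for replicate 2, and its log2 ratio of 3' to 5' signal of the actin control probe sets was 0.88 to 1.24 where the whole series spanned 0.88 to 1.47. Whether RNA quality had a part in this was not tested. The pooled SD within groups was 0.0964.

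**Figure D2:**
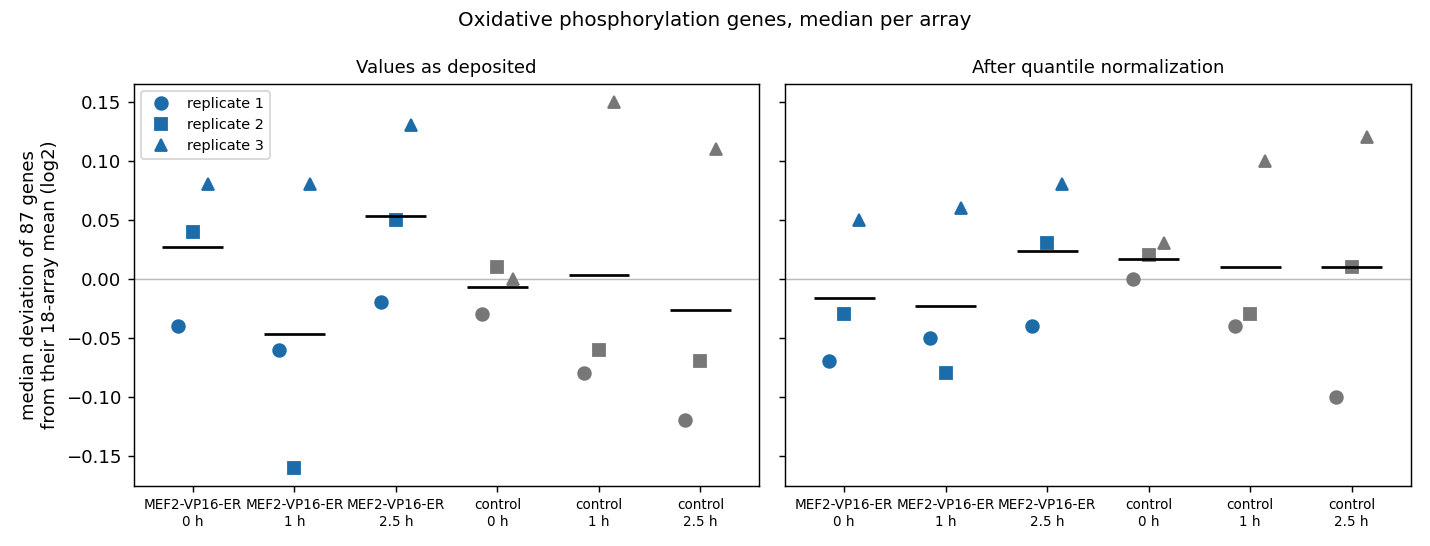
Median deviation of the 87 genes on each array from their 18-array means, in log2 units on the vertical axis, by group along the horizontal axis, for the deposited values (left) and after quantile normalization (right); symbols mark the replicate number and bars the mean of 3 arrays. Replicate 3 lies highest in 5 of the 6 groups as deposited, and the replicate 2 array of MEF2-VP16-ER at 1 h lies lowest, at -0.16.

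The shift at 1 h was smaller under another normalization. After quantile normalization, which gives all arrays the same distribution of values, the median induction of the set was -0.01 at 1 h and 0.04 at 2.5 h, and 0 of 87 genes were called at either time. By complex, the medians at 1 h were then -0.01 in complex I (15 of 36 above 0), -0.05 in complex II and -0.01 in complex V (8 of 16 above 0), and those of complexes III and IV turned to above 0. The difference between constructs at 0 h turned, with a median of -0.03 and 21 of 87 genes higher in place of 75. The upper quartile of intensity was 676.7 on the low array, MEF2-VP16-ER replicate 2 at 1 h, where the 18 arrays spanned 639.4 to 714.7. The 15521 probe sets above the median level, among them 81 of the 87 genes, had a median induction of -0.07 at 1 h where these 81 had -0.10. Other abundant housekeeping transcripts stood alike: 73 genes of the mitochondrial ribosome had a median induction of -0.10 at 1 h and 48 of the cytosolic ribosome -0.09, with 10 and 4 genes higher, and after quantile normalization the medians were -0.03 and -0.01. None of these ribosomal genes was called.

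**Figure D3:**
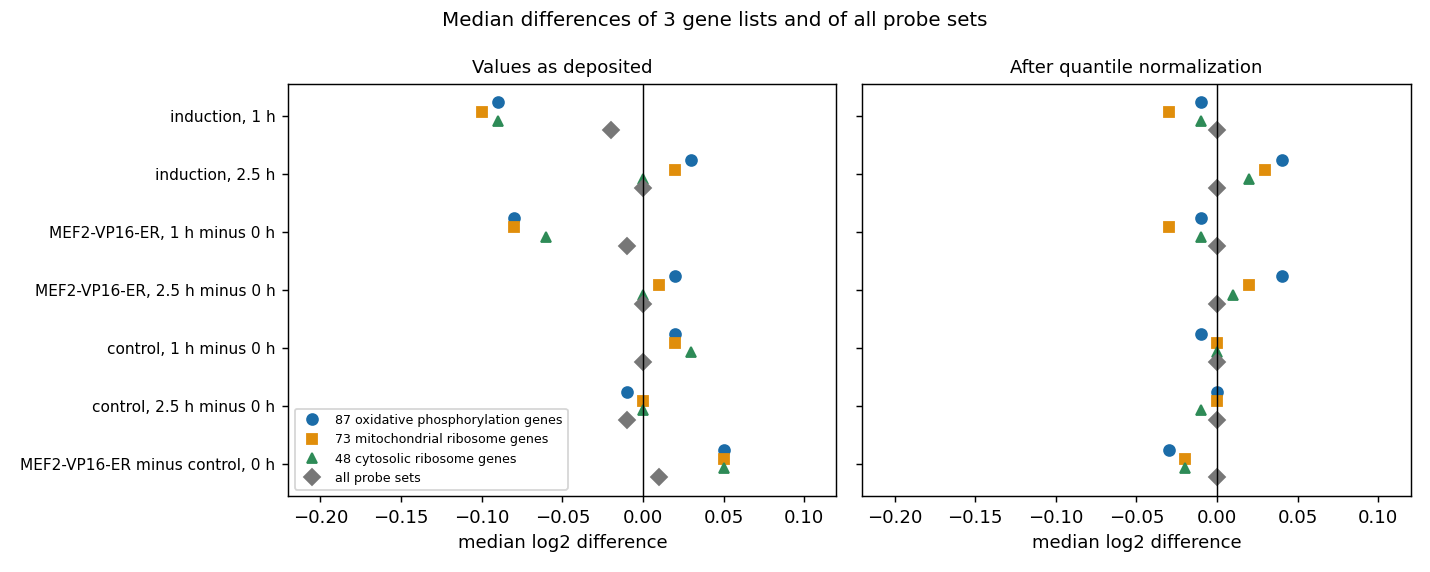
Median log2 difference (horizontal axis) of 3 gene lists and of all probe sets in each of 7 comparisons (rows), for the deposited values (left) and after quantile normalization (right). At 1 h the 87 genes and both ribosomal lists lie near -0.09 as deposited and between -0.03 and -0.01 after quantile normalization.

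Promoters of the genes show which factors have letters in reach of their start sites. RefSeq windows (GRCr8, 250 bases before to 50 after the start) were matched for 78 of the 87 genes and searched on both strands, and each share is set beside that of 27457 genes with a window, which were not matched for base composition. A loose form of the MEF2 letters, CTA and TAG with 4 free bases between them, stood in 2 windows (2.56%), against 4.14% of all windows. These were the windows of Cox6a2 and Cox5b. The search did not require A or T at the 4 free bases, as the usual MEF2 site does, and allowed no other outer bases. The NRF1 letters, GCGCA and GCGC with 1 free base between them, stood in 15 windows (19.2%, against 4.82%), the ETS core CGGAAG that GABP reads in 42 (53.8%, against 18.2%), and the YY1 letters AAGATGGC in 17 (21.8%, against 3.62%). In all, 56 windows held NRF1, ETS or YY1 letters, and 11 held both ETS and YY1 letters, which did not overlap in any of them. A match is a description of the letters, not a site shown to be bound. The windows below are the 2 with MEF2 letters and 3 that carry the letters of the usual factors of this pathway, with matches to the 4 motifs in capitals:
Cox6a2, chr1:192219667-192219966, minus strand: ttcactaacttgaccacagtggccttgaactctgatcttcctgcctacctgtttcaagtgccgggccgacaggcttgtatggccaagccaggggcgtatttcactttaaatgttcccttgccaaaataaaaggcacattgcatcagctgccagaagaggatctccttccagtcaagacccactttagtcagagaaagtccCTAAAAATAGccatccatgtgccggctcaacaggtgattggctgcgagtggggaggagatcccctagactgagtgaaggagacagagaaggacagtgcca
Cox5b, chr9:46417587-46417886, plus strand: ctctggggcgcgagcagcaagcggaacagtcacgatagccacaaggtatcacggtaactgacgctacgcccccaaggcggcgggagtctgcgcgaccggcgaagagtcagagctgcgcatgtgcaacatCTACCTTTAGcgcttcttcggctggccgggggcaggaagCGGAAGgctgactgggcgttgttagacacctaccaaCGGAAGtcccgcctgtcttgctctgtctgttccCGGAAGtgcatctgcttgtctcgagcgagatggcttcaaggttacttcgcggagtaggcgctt
Sdha, chr1:30764303-30764602, plus strand: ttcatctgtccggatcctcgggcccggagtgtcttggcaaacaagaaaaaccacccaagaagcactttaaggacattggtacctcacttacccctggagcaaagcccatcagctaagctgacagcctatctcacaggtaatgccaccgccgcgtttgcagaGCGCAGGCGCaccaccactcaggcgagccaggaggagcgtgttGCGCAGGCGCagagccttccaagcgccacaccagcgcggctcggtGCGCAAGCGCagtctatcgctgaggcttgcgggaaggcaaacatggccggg
Uqcrc1, chr8:118467973-118468272, plus strand: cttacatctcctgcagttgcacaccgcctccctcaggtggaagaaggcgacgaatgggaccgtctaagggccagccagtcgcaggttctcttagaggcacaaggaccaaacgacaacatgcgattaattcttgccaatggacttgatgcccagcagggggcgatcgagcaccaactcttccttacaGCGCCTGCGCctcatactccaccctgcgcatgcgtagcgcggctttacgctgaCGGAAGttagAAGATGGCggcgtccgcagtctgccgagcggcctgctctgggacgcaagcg
Atp5me, chr14:1464610-1464909, plus strand: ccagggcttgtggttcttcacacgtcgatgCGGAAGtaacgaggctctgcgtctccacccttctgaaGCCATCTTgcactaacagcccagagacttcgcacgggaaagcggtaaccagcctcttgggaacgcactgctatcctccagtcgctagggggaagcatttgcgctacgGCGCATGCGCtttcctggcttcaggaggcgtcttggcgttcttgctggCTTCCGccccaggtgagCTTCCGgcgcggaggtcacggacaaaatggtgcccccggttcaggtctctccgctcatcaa
The MEF2 letters of Cox6a2, CTAAAAATAG, begin 50 bases before its start. Those of Cox5b, CTACCTTTAG, begin 121 bases before its own start, ahead of 3 ETS cores, and their free bases are not all A or T. Sdha holds 3 NRF1 matches, Uqcrc1 an NRF1 match, an ETS core and a YY1 match that begins 1 base before the start, and Atp5me an NRF1 match, 3 ETS cores and a YY1 match. The 17 genes with YY1 letters were all above 0 in induction at 2.5 h (0.01 to 0.12, median 0.07), where 66 of all 87 genes were. In replicate 3 by itself 19 of the 87 were above 0. All genes were read on the same arrays, so their signs are not independent of each other. The 15 with NRF1 letters had a median of 0.02 (11 above 0) and the 42 with ETS cores 0.02 (29 above 0). At 1 h the medians were -0.09 for YY1, -0.12 for NRF1 and -0.11 for ETS. None of these genes was called, and no test of the difference between the groups of promoters was made.

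The readings that follow are the deposited intensities on a linear scale, in the order of replicates 1 to 3, and each difference is on the log2(intensity + 16) scale with its standard error from limma. In complex I, which oxidises NADH, the 36 genes had a median induction of -0.10 at 1 h (3 above 0) and 0.05 at 2.5 h (30 above 0). The lowest F test p of the complex was 0.190, of Ndufs1, the large iron-sulfur subunit of its NADH-oxidising arm. Ndufs1 read 2443.8, 2445.9 and 2449.3 in MEF2-VP16-ER neurons at 0 h, 2058.8, 2027.1 and 2445.8 at 1 h, and 2403.7, 2402.3 and 2571.6 at 2.5 h. Control neurons gave 2111.7, 2111.5 and 2369.1 at 0 h, 2247.8, 1962.2 and 2397.0 at 1 h, and 2295.8, 2048.6 and 2449.5 at 2.5 h. At 0 h every MEF2-VP16-ER array was above every control array (0.16 ± 0.09 log2, SE, limma's adjusted p = 0.643), and at 1 h the groups overlapped, with an induction of -0.17 ± 0.12 (limma's adjusted p = 0.996). After quantile normalization these were 0.08 for the constructs at 0 h and -0.09 for the induction.

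The largest inductions of the set at 2.5 h were also in complex I. Ndufb7, an accessory subunit of the membrane arm, read 2032.5, 2158.4 and 2587.7 in MEF2-VP16-ER neurons at 2.5 h and 2010.9, 2069.1 and 2169.4 at 0 h. The control arrays read 1857.6, 1824.1 and 2520.8 at 2.5 h and 2103.0, 2134.4 and 2094.2 at 0 h. Replicate 3 was highest in both 2.5 h groups, which overlapped, and the induction was 0.16 ± 0.17 (SE). Ndufa11, another accessory subunit of the membrane arm, had 0.15 ± 0.17.

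At 1 h the lowest inductions were those of Ndufab1, the mitochondrial acyl carrier protein, at -0.21 ± 0.14, and Ndufv3, an accessory subunit of the NADH-oxidising arm, at -0.20 ± 0.16, and after quantile normalization both were -0.11. Ndufab1 read 5186.9, 5031.3 and 6268.6 in MEF2-VP16-ER neurons at 1 h and 5657.4, 6097.8 and 6193.2 at 0 h. Control neurons gave 5861.5, 5650.6 and 6703.6 at 1 h and 5497.4, 6080.1 and 5565.7 at 0 h. Replicates 1 and 2 were low at 1 h in MEF2-VP16-ER neurons, replicate 3 was not, and the groups overlapped. For Ndufv3 a second, dimmer probe set gave 0.17 at 1 h where the representing one gave -0.20, so the probe sets of this gene disagree in sign. Ndufb9, a membrane arm subunit, stood -0.18 ± 0.11 at 1 h against 0 h in MEF2-VP16-ER neurons (-0.11 after quantile normalization). Ndufa4, counted here by its symbol, is also known as a subunit of complex IV. Within complex I the spread was widest for Ndufb8, also of the membrane arm (pooled SD within groups 0.27 log2 units), whose induction at 2.5 h was 0.11 ± 0.29.

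Complex II, succinate dehydrogenase, feeds electrons from the citric acid cycle, and its 4 genes were all below 0 in induction at 1 h (median -0.14) with 2 of 4 above 0 at 2.5 h (median -0.01). Sdhb, the iron-sulfur subunit, read 5657.8, 5837.4 and 6238.6 in MEF2-VP16-ER neurons at 0 h, 5047.3, 4901.0 and 5763.3 at 1 h and 5479.2, 5508.5 and 5992.3 at 2.5 h. Control neurons gave 5434.2, 5162.4 and 5557.5 at 0 h, 4952.8, 5039.3 and 6445.0 at 1 h and 5223.6, 5136.1 and 5866.4 at 2.5 h. In MEF2-VP16-ER neurons replicates 1 and 2 at 1 h were below every 0 h array and replicate 3 was not, and the induction at 1 h was -0.19 ± 0.13. After quantile normalization it was -0.09.

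Sdha, the flavoprotein subunit with 3 NRF1 matches in the window above, was among the steadier genes, with a pooled SD within groups of 0.06 log2 units. It read 2428.1, 2371.3 and 2458.8 in MEF2-VP16-ER neurons at 0 h, 2279.3, 2139.7 and 2367.5 at 1 h and 2500.1, 2240.5 and 2344.9 at 2.5 h. Control neurons gave 2285.9, 2283.6 and 2287.4 at 0 h, 2339.9, 2193.3 and 2486.9 at 1 h and 2286.0, 2150.5 and 2335.8 at 2.5 h. Its induction was -0.13 ± 0.08 at 1 h (-0.05 after quantile normalization) and -0.02 ± 0.08 at 2.5 h, with an interval of -0.19 to 0.16 at the later time. The membrane anchors Sdhc and Sdhd had inductions of 0.10 ± 0.16 and 0.00 ± 0.10 at 2.5 h.

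In complex III, which hands electrons to cytochrome c, the 8 genes had a median induction of -0.06 at 1 h (1 above 0) and 0.05 at 2.5 h (6 above 0). After quantile normalization the median at 1 h turned, to 0.05 with 6 of 8 above 0. Uqcrc2, core protein 2, was the only one of the 87 genes with an interval off 0 in either induction. It read 4957.5, 4955.6 and 5429.7 in MEF2-VP16-ER neurons at 1 h and 5816.3, 5573.6 and 5562.3 at 0 h. Control neurons gave 5609.9, 5165.6 and 5967.6 at 1 h and 5475.6, 5551.1 and 5058.5 at 0 h. In MEF2-VP16-ER neurons the 1 h arrays were all below the 0 h arrays, whereas in control neurons the times overlapped. The induction was -0.20 ± 0.09 (interval -0.39 to -0.01, limma's adjusted p = 0.996), -0.09 after quantile normalization, and -0.27 on a second probe set, which was not called either.

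Uqcrfs1, the Rieske iron-sulfur protein, had an induction of 0.13 ± 0.22 at 1 h (0.25 after quantile normalization), with 4302.8, 3439.8 and 4424.9 in MEF2-VP16-ER neurons and 2834.9, 3167.0 and 4443.8 in control neurons at that time. The replicate 3 arrays of both groups were alike and the other 2 were further apart. Cyc1, cytochrome c1, the subunit that docks cytochrome c, had inductions of 0.00 ± 0.16 at 1 h and -0.02 ± 0.16 at 2.5 h. Uqcrc1, core protein 1, whose window is printed above, read 3310.7, 3272.3 and 3803.6 in MEF2-VP16-ER neurons at 2.5 h and 2898.9, 3185.4 and 3612.1 in control neurons at 2.5 h, which overlapped.

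Complex IV has paired isoforms for several subunits, so that it can show whether a muscle form appears where the common form is expressed. Its 17 genes had median inductions of -0.03 at 1 h (6 above 0) and 0.03 at 2.5 h (11 above 0), and after quantile normalization the value at 1 h turned, to 0.03 with 9 of 17 above 0. Cox6a2, the heart and skeletal muscle form of subunit 6A and 1 of the 2 genes with MEF2 letters, read 73.6, 66.6 and 76.4 in MEF2-VP16-ER neurons at 0 h, 79.1, 75.5 and 65.3 at 1 h and 96.9, 73.5 and 77.4 at 2.5 h. Readings in control neurons were 73.7, 67.8 and 61.1 at 0 h, 66.9, 68.2 and 66.7 at 1 h and 68.5, 81.5 and 58.7 at 2.5 h. The replicate 1 array of MEF2-VP16-ER at 2.5 h was the highest and the other 2 lay within the range of the rest, so the groups overlapped. Its difference between 2.5 h and 0 h in MEF2-VP16-ER neurons, 0.15 ± 0.10, was the largest positive one of the set (limma's adjusted p = 1.00), and its induction was 0.13 ± 0.14. All these readings lie below the array medians of 190.4 to 197.0, in a range where no detection call was given, and the summed intensity of 5 muscle markers (Acta1, Ckm, Des, Myh7 and Tnnt2) was 538 to 728 over the 18 arrays.

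The other forms of complex IV subunits were not called either. Cox6a1, the common form of subunit 6A, read 9087.7, 9072.6 and 8522.8 in MEF2-VP16-ER neurons at 2.5 h and 8490.3, 8747.4 and 9211.0 at 0 h. Control neurons gave 7721.2, 8413.8 and 8465.5 at 2.5 h and 8418.4, 8610.2 and 8579.5 at 0 h. The MEF2-VP16-ER arrays at 2.5 h were all above the control arrays at 2.5 h, and the induction was 0.07 ± 0.08 with an interval of -0.11 to 0.25. Cox7a1, the muscle form of subunit 7A, had an induction of -0.09 ± 0.12 at 2.5 h, and Cox8b, the muscle form of subunit 8, 0.06 ± 0.13, while Cox8a, the common form of subunit 8, had 0.03 ± 0.08. Cox4i1, the common form of subunit 4, had -0.02 ± 0.09 and Cox4i2, the form known to respond to oxygen, -0.09 ± 0.13. Cox8b and Cox4i2 were dim, with mean intensities of 74.5 and 60.7, below the array medians. Cox7a2l, which helps complexes III and IV to join in supercomplexes, had 0.05 ± 0.12.

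Cox5b, the second gene matched by the loose MEF2 letters, read 5129.1, 4929.8 and 4975.7 in MEF2-VP16-ER neurons at 2.5 h and 4674.9, 5121.6 and 5924.3 at 0 h. In control neurons it read 4255.4, 4880.6 and 5191.7 at 2.5 h and 4740.7, 4720.5 and 5391.1 at 0 h. All groups overlapped and the induction was 0.00 ± 0.17. The testis form of subunit 6B, Cox6b2, had the lowest induction of the set at 2.5 h, -0.11 ± 0.17, and the widest range of group means, 0.28 log2 units, at mean intensity 101.4. The highest induction at 1 h, 0.19 ± 0.13, was that of Cox6c-ps1, which the annotation lists as a pseudogene of Cox6c, so its reading cannot be told apart from that of its parent gene with certainty. Cox7b, a common subunit, had the lowest difference from 0 h in control neurons at 2.5 h, -0.12 ± 0.12.

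Of complex V, ATP synthase, the 16 genes had a median induction of -0.11 at 1 h (1 above 0) and 0.02 at 2.5 h (13 above 0). Atp5if1, the inhibitor that keeps the enzyme from hydrolysing ATP, had the lowest F test p of the complex, 0.360. It read 2764.3, 2572.5 and 2682.6 in MEF2-VP16-ER neurons at 1 h and 2834.1, 2839.2 and 2720.0 at 0 h. The control arrays read 2635.9, 2734.8 and 2929.1 at 1 h and 2703.7, 2677.6 and 2510.0 at 0 h. The MEF2-VP16-ER times overlapped, and the induction at 1 h was -0.14 ± 0.09 (-0.04 after quantile normalization). Atp5me, a membrane subunit of the synthase, read 2300.5, 2719.1 and 2822.8 in MEF2-VP16-ER neurons at 2.5 h and 2315.0, 2527.2 and 2970.0 in control neurons at 2.5 h, where replicate 1 was the lowest and replicate 3 the highest in both.

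The assembly factors build complex I and do not stay in it. Ndufaf5, an enzyme that modifies a complex I subunit during assembly, had the lowest F test p of the 87 genes, 0.0270 before adjustment. It read 520.4, 550.2 and 532.5 in MEF2-VP16-ER neurons at 0 h, 495.8, 481.6 and 483.6 at 1 h and 530.1, 553.4 and 565.8 at 2.5 h. Control neurons gave 518.7, 527.8 and 515.9 at 0 h, 530.2, 507.5 and 526.1 at 1 h and 500.1, 454.7 and 520.8 at 2.5 h. The 1 h arrays of MEF2-VP16-ER lay below all MEF2-VP16-ER arrays of 0 h and 2.5 h, and those of 2.5 h above the control arrays of 2.5 h. The induction was -0.13 ± 0.07 at 1 h (-0.07 after quantile normalization) and 0.12 ± 0.07 at 2.5 h, and neither was called.

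Ndufaf4 had the widest spread of the set, with a pooled SD within groups of 0.47 log2 units. It read 775.9, 1040.5 and 1193.5 in MEF2-VP16-ER neurons at 0 h, 695.0, 859.1 and 1519.0 at 1 h and 666.0, 952.7 and 1386.4 at 2.5 h. The control arrays read 838.3, 808.6 and 1245.1 at 0 h, 655.3, 764.2 and 1391.3 at 1 h and 830.1, 672.3 and 1286.0 at 2.5 h. The replicate 3 array was the highest in all 6 groups, while the order of replicates 1 and 2 differed between groups. In replicate 2 the 3 MEF2-VP16-ER arrays were above the 3 control arrays, and in replicates 1 and 3 they overlapped. Ndufaf7, a methyltransferase that acts on a complex I subunit, had the largest difference between constructs at 0 h, 0.17 ± 0.09 (limma's adjusted p = 0.602), with 347.9, 360.5 and 396.9 in MEF2-VP16-ER neurons and 347.5, 320.9 and 309.4 in control neurons. After quantile normalization this was 0.12, and a second probe set of the gene (mean intensity 265.2, against 342.5) gave 0.03. Ndufaf1, an assembly factor of the membrane arm, had an induction of 0.13 ± 0.13 at 1 h, at a mean intensity of 64.7, below the array medians.

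Over the whole set, the median SD within groups was 0.12 log2 units and the median range of the 6 group means 0.13, where all probe sets had 0.10 and 0.15. The median SD by complex was 0.13, 0.10, 0.12, 0.11 and 0.12 in complexes I to V. The 10 further probe sets of 9 of the genes also gave 0 calls, with inductions of -0.27 to 0.17 at 1 h and -0.15 to 0.15 at 2.5 h. Of the core subunits encoded in mitochondrial DNA, COX1 and COX2 of complex IV were measured, and their inductions at 2.5 h were -0.02 ± 0.13 and -0.02 ± 0.07.

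A few genes around the pathway were called. No neighbouring list had more than 1 call per comparison without the block, and the lists were chosen with earlier results known. These counts therefore do not set the lists apart from the respiratory chain. Of 25 listed regulators of respiratory genes 23 were measured, and 1 rose within MEF2-VP16-ER neurons at 2.5 h (background 0.789% of all probe sets), Ppargc1a, which encodes PGC-1alpha. Ppargc1a read 456.1, 470.3 and 544.2 in MEF2-VP16-ER neurons at 0 h, 552.9, 490.5 and 583.6 at 1 h and 738.9, 618.7 and 889.7 at 2.5 h. Readings in control neurons were 502.3, 431.4 and 514.5 at 0 h, 506.9, 494.5 and 533.1 at 1 h and 445.1, 392.2 and 504.4 at 2.5 h. The MEF2-VP16-ER arrays of 2.5 h were above all other arrays. The change from 0 h was 0.58 ± 0.12 log2 units (limma's adjusted p = 0.0340; 0.000112 with replicate number as a block).

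The induction of Ppargc1a was 0.69 ± 0.17 (interval 0.33 to 1.06), which missed the threshold without the block (limma's adjusted p = 0.212) and passed with it (0.00132), where 0.937% of all probe sets were called. Its call within MEF2-VP16-ER neurons was kept in 2 of 6 fits that left out 1 array and in 0 of 3 without a replicate number, where the change was 0.53 to 0.69. The other 2 probe sets of the gene had inductions of 0.42 and 0.33. Their changes within MEF2-VP16-ER neurons at 2.5 h were 0.30 and 0.20, where the representing probe set had 0.58. The first of them was nearly as bright (mean intensity 505.4, against 537.2) and the second dim (66). Neither was called in these comparisons, also with the block. The RefSeq window of Ppargc1a held 0 matches to the loose MEF2 letters. That search read only bases close to the start and only this form of the letters. Whether a MEF2 site lies farther from the start, or has other letters, was not tested. The median induction of the 23 regulators was -0.06 at 2.5 h, with 7 above 0.

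**Figure D4:**
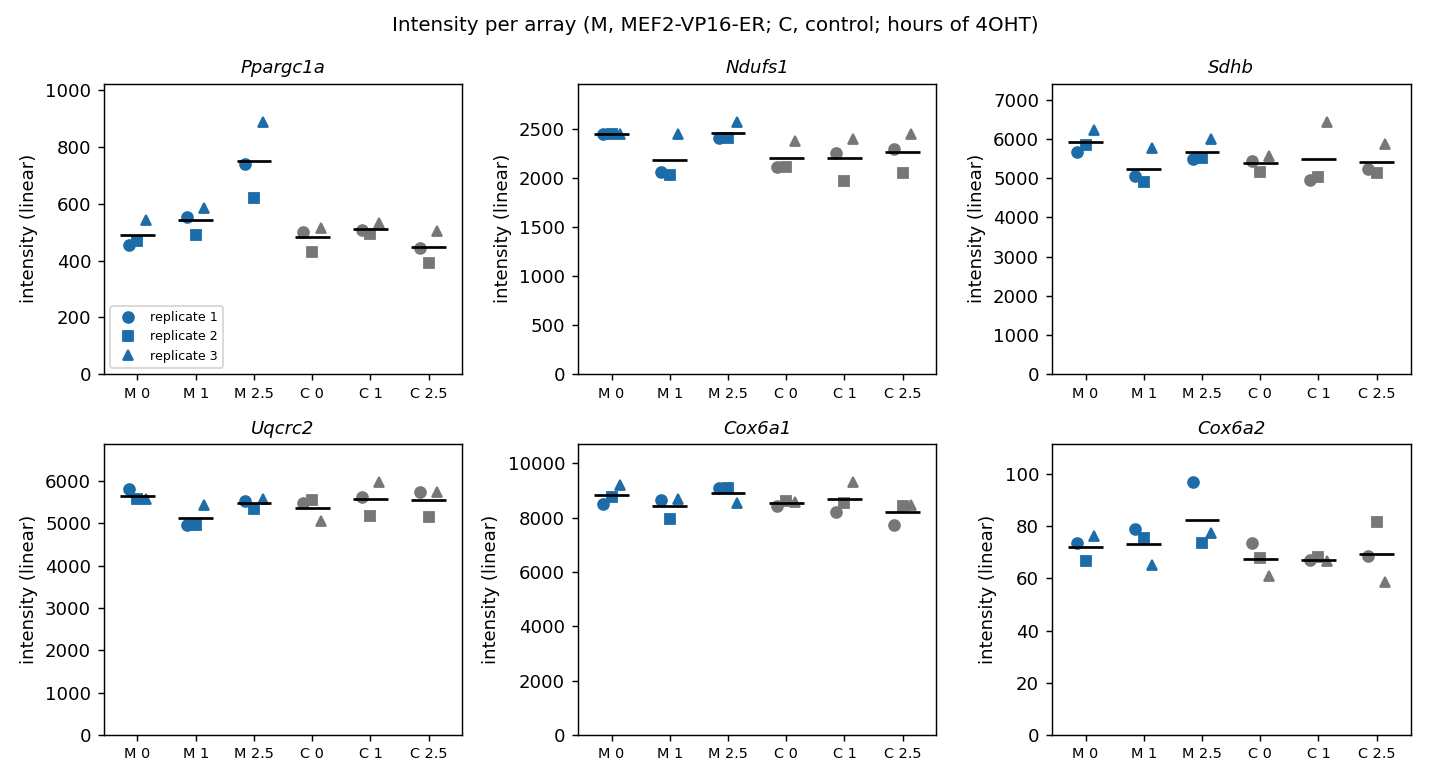
Intensity on each array (linear vertical axis from 0) of the regulator gene Ppargc1a and of 5 oxidative phosphorylation genes, with the 6 groups along the horizontal axis (M, MEF2-VP16-ER; C, control; hours of 4OHT), symbols for the replicate number and bars for the mean of 3 arrays. Ppargc1a lies above all other arrays in MEF2-VP16-ER neurons at 2.5 h, between 618.7 and 889.7, and in Ndufs1, Sdhb, Uqcrc2, Cox6a1 and Cox6a2 the groups overlap in most comparisons.

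Of the fuel pathways that supply or bypass the chain, glycolysis held the call of largest size. Of 23 measured glycolysis and lactate genes 1 fell within MEF2-VP16-ER neurons at 2.5 h, where 0.789% of all probe sets were called, and 1 in the induction at 2.5 h, where 0.177% were, in both cases Pfkfb3, whose product makes the activator of phosphofructokinase. Pfkfb3 read 1231.6, 1096.0 and 1283.1 in MEF2-VP16-ER neurons at 0 h, 1050.4, 918.3 and 854.1 at 1 h and 710.2, 734.2 and 591.6 at 2.5 h. In control neurons it read 1171.9, 1061.3 and 1096.6 at 0 h, 1200.8, 1100.9 and 1093.4 at 1 h and 1124.6, 966.8 and 1010.4 at 2.5 h. The MEF2-VP16-ER arrays of 2.5 h were below all other arrays, and the change from 0 h was -0.81 ± 0.09 log2 units (limma's adjusted p = 0.000336, kept in 6 of 6 fits without 1 array). The induction at 2.5 h was -0.71 ± 0.13 (limma's adjusted p = 0.0454, and 0.0586 after quantile normalization) and was kept in 1 of 12 such fits, while 2 dimmer probe sets of the gene gave -0.18 and 0.02.

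The 23 glycolysis genes had a median induction of -0.16 at 2.5 h, as deposited and after quantile normalization, with 5 above 0 as deposited, and at 1 h -0.19 as deposited and -0.09 after quantile normalization. Among 26 carriers and energy transfer genes 1 fell within MEF2-VP16-ER neurons at 2.5 h (background 0.789%), Ak4, a mitochondrial adenylate kinase, with a change of -0.51 ± 0.11 (limma's adjusted p = 0.0432, and 0.0593 after quantile normalization). It read 773.4, 915.8 and 958.2 in MEF2-VP16-ER neurons at 2.5 h and 1118.5, 1325.0 and 1356.3 at 0 h, which did not overlap, and 1063.4, 1135.5 and 1157.6 in control neurons at 2.5 h. The call of Ak4 was kept in 1 of 6 fits without 1 array. Its induction of -0.56 ± 0.16 passed with the block alone (limma's adjusted p = 0.00169, against 0.369 without it), where 0.937% of all probe sets were called. A second, dimmer probe set of Ak4 (mean intensity 74.1) gave -0.11 for the change and -0.10 for the induction, and was not called. Slc2a3, the neuronal glucose transporter gene, also passed with the block alone, with a change of -0.40 ± 0.13 from 0 h at 2.5 h (limma's adjusted p = 0.00834, against 0.377). With the block 2.33% of all probe sets were called there. A second, dimmer probe set of Slc2a3 (mean intensity 119.6) gave -0.32 and was not called. The 22 measured genes of the citric acid cycle and pyruvate dehydrogenase gave 0 calls, with a median induction of -0.02 at 2.5 h, and the 46 further assembly factors 0 calls with a median of 0.03.

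Markers of the cells in these cultures were read beside the set. The summed intensity of 6 neuron markers was 35505 to 38106 in MEF2-VP16-ER neurons and 32633 to 35203 in control neurons at 0 h, 34645 to 36582 and 33047 to 37039 at 1 h, and 35579 to 36573 and 33677 to 34323 at 2.5 h. These sums were higher in MEF2-VP16-ER neurons without overlap at 0 h and 2.5 h, and at 0 h 75 of the 87 genes also stood higher there, although none of the 6 markers was called. After quantile normalization the median difference of these markers between constructs at 0 h was 0.01, against 0.10 as deposited, and 21 of the 87 genes stood higher. The offset at 0 h was not particular to the set. As deposited, the 15521 probe sets above the median level had a median of 0.06, and the 81 genes of the set among them 0.05. Of the ribosomal genes, 62 of 73 mitochondrial and 45 of 48 cytosolic ones stood higher, each list with a median of 0.05. The sums of 6 astrocyte markers were 33245 to 49040 in MEF2-VP16-ER arrays and 33508 to 47099 in control arrays. Both cell types were thus read on every array, and the astrocyte sums of the 6 groups overlapped. The 4 excitatory markers summed to 7491 to 9336 in MEF2-VP16-ER neurons at 2.5 h, against 11154 to 13160 at 0 h, and 2 of the 4 fell there (background 0.789%), Neurod2 (-0.65, limma's adjusted p = 0.00617) and Neurod6 (-0.66, limma's adjusted p = 0.0158), both transcription factor genes of excitatory neurons. The other 2, Slc17a7, a vesicular glutamate transporter gene, and Camk2a, a kinase gene of excitatory synapses, had -0.13 ± 0.15 and 0.15 ± 0.22. In the induction at 2.5 h 0 of the 4 were called (background 0.177%), with 2 above 0 in a range of -0.75 to 0.35. With the block Neurod2 and Neurod6 were called (limma's adjusted p = 0.000554 and 0.0275), where 0.937% of all probe sets were. Microglia markers summed to 816 to 1104 and endothelial markers to 224 to 264. The part of these cells in the values of the oxidative phosphorylation genes was not tested.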

How the data were processed

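RNA of 18 cultures was hybridised to Affymetrix arrays after biotin labelling, per the labels. The deposited values are 1 intensity per probe set and array on a linear scale, and how the authors normalized them is not stated in the labels. Array medians lay between 190.4 and 197.0. The values were used as deposited, as log2(intensity + 16), and 57 control probe sets were left out, which left 31042. Gene symbols came from the platform's annotation, where 20826 probe sets have 1 symbol, 436 several and 9780 none.

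A mean for each of the 6 groups was fitted in limma 3.58.1 (R 4.3.3) with eBayes, 12 residual degrees of freedom and a prior of 2.89, and p-values were adjusted by Benjamini-Hochberg over all 31042 probe sets in each comparison. Intervals are limma's 95% intervals. The script was tested on simulated data. Arrays carry no counts, so their number limits the precision. Promoters were searched in Python 3.11.15 with pandas 2.3.3, and figures drawn with matplotlib 3.10.9.

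Named genes are the complex II genes, Cyc1, the tissue isoforms of complex IV, and the 3 highest and 3 lowest differences of each comparison. To these come the lowest F test p of each complex and called genes of neighbouring lists, with Ppargc1a always. The rule also took up to 3 genes per neighbouring list by largest absolute induction at 2.5 h. Of these, the ones not called are not described, apart from COX1 and COX2. Uqcrc1, Atp5me and Cox5b were added for their promoters, and Ndufa4 after its values were seen. Ndufb8 was among the 3 lowest in control neurons at 2.5 h, and its spread was added after the values were seen. Ndufa2 and Ndufa6 met the same rule in control neurons and are not described. The genes and lists were chosen with earlier results of these data known.

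Replicate numbers from the labels were checked as a pairing by the correlation of residuals between same-numbered arrays. It was over 0.1 in 44 of 45 pairs, and the lowest, 0.068, involved the 1 h arrays of MEF2-VP16-ER, so comparisons with MEF2-VP16-ER at 1 h were not taken as paired and the others were. The fits behind the text have no block, also for comparisons taken as paired, and neither do those that left out arrays or numbers. For the induction at 2.5 h the median standard error of the set was 0.13 without the block and 0.09 with it. Alternatives were the block, quantile normalization, median centring, pseudocounts of 1 and 64, a filter on dim probe sets, other eBayes options, averaging probe sets per gene, and leaving out arrays or replicate numbers.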

Additional observations from a re-analysis of the deposited data

How the results depend on the processing

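The count of oxidative phosphorylation genes called was 0 in all 160 alternative fits of the 8 tests. With the replicate block it was 0 in each comparison, and the smallest adjusted p of a member was 0.748 for the induction at 2.5 h, 0.581 at 1 h and 0.266 for the F test (limma), while the calls over all probe sets went to 291 in place of 55 for the induction at 2.5 h, 9 in place of 1 at 1 h, 724 in place of 245 and 58 in place of 11 within MEF2-VP16-ER neurons at 2.5 h and 1 h, and 845 in place of 233 for the F test. The number of members with an unadjusted p under 0.05 went to 4 in place of 1 for the induction at 1 h, and to 9 in place of 2 within MEF2-VP16-ER neurons at 1 h. For those comparisons at 1 h the numbers are not taken as a pairing, although each of the 18 arrays correlated best with an array of its own number. The median difference of the set moved by less than the within-group SD of 0.0964 in 131 of 131 settings, but not always with 1 sign. That SD is larger than every median it was set against, which ran from -0.09 to 0.05. The count therefore does not show the medians to be stable: the induction at 1 h went from -0.09 to -0.01 after quantile normalization within it. Leaving out single arrays gave -0.16 to -0.03 for the induction at 1 h and -0.01 to 0.11 at 2.5 h, the lowest without the replicate 3 array of MEF2-VP16-ER at 2.5 h. Leaving out a replicate number gave -0.16 to -0.06 at 1 h and 0.00 to 0.08 at 2.5 h. Within control neurons the ranges for single arrays were -0.05 to 0.06 at 1 h and -0.09 to 0.03 at 2.5 h, and for the constructs at 0 h 0.01 to 0.07, against -0.03 after quantile normalization. The cause of these shifts was not tested. Intensities near the dim end, as for Cox6a2, Cox4i2 and Cox7b2, come without a detection call, so a change in such a gene could be compressed, and small shifts were resolved unevenly, since 10 of 87 intervals lay within 0.25 of 0 at 2.5 h without the block and 42 of 87 with it.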
